A study of Mus musculus with 6 samples.

Results

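A set of 47 genes of nervous tissue was followed through liver libraries, as 1 row each of a table of 24411 genes. The genes were selected by symbol and comprise 21 pan-neuronal genes, 11 genes that define a neurotransmitter, 3 calcium-binding proteins, 6 cerebellar or forebrain genes and 6 hindbrain or spinal genes. They were proposed with the counts of these libraries known, so their levels and the difference between the genotypes are given as a description, without a test of their own. RNA came from livers of 3 p62+/+ mice and 3 p62S351E/+ mice, all at postnatal day 19, and ribosomal RNA was depleted ahead of sequencing. The p62+/+ mice are labelled wild type. In the p62S351E/+ mice, 1 allele of Sqstm1, the gene of the autophagy receptor p62, encodes Glu in place of Ser351, which mimics phosphorylation at that residue. This allele was made by prime editing in C57BL/6N-derived embryonic stem cells and passed on by a single male chimera through in vitro fertilization, so all carriers descend from that animal. No sex or batch is given for any of the mice.

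Values are expected counts, the number of reads that RSEM assigned to a gene, without normalization. The libraries held between 8696712 and 10341622 counts, but only between 134911 and 315436 of these fell outside Rn45s, Lars2 and Mir6236, and shares are given as a percent of this smaller number. The smallest was that of p62S351E/+ mouse 1. A gene at 0 counts could have a share of up to 0.00222% in p62S351E/+ mouse 1, the value of 3 counts, against at most 0.0013% in each of the other 5 libraries. Intervals and this limit cover counting error only. The label liver was checked with 12 hepatocyte genes such as Alb, and all 12 had more than 3 counts in each of the 6 libraries. Libraries stood apart within 1 genotype. p62S351E/+ mice 1 and 2 had next to no neuronal counts, while p62S351E/+ mouse 3 had about as many as the p62+/+ mice, and results that rest on this are given with and without mouse 3.

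Neurons transmit signals by releasing transmitters from synaptic vesicles, and they fill their vesicles with transporters that differ between glutamate, GABA, glycine, acetylcholine and monoamine neurons. Their long processes are built from a cytoskeleton of neurofilaments and of neuronal tubulins and their partners. Outside neurons, many of these genes are held silent by REST, a repressor that binds a DNA element named RE1. Regions of the nervous system keep the transcription factors that patterned them. The forebrain lacks Hox expression, whereas hindbrain and spinal cord express Hox genes in an order along the body axis. Hox genes are also used by other tissues of the trunk. The healthy liver receives autonomic nerve fibres, but the cell bodies of these neurons lie outside it.

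The summed counts of the 47 genes split the libraries into 4 with many and 2 with almost none. The sums were 1540, 1658 and 1478 counts across p62+/+ livers. In the p62S351E/+ mice they were 9 counts in mouse 1, 12 counts in mouse 2 and 1433 counts in mouse 3. As a share of this smaller number, the p62+/+ libraries had 0.518%, 0.5535% and 0.544% (mean 0.539 ± 0.0185%, SD, n = 3). p62S351E/+ mouse 1 had 0.00667% (exact 95% interval 0.00305 to 0.0127%), mouse 2 had 0.00518% (0.00268 to 0.00905%) and mouse 3 had 0.454% (0.431 to 0.478%). The p62+/+ mean was thus 80.7-fold the share of mouse 1 and 104-fold the share of mouse 2, while the share of mouse 3 was 0.843 of it. The 2 genotypes did not overlap in this share. Mouse 3 was below the lowest p62+/+ mouse, mouse 1, whose exact 95% interval of 0.493 to 0.544% did not reach that of mouse 3. In bulk RNA, fewer cells of a type cannot be told apart from less RNA per cell. Whether the neuronal counts came from cells of the liver or from other tissue was not tested.

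**Figure D1:**
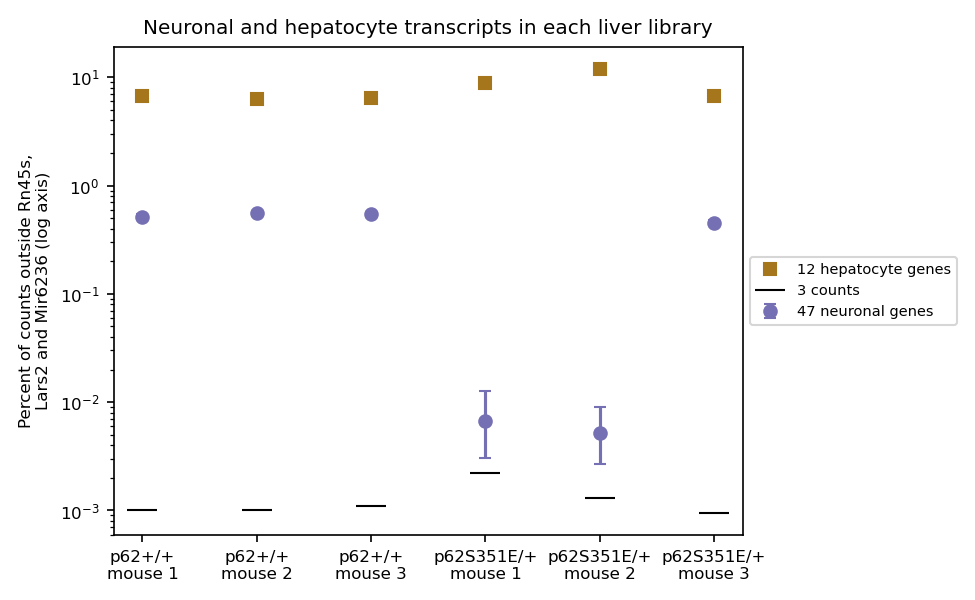
Percent of counts outside Rn45s, Lars2 and Mir6236 (log axis) in each of the 6 libraries. Circles are the 47 neuronal genes summed, with exact 95% intervals of counting error, squares are 12 hepatocyte genes summed, and dashes mark the share that 3 counts would give. The circles lie near 0.5% in 4 libraries and near 0.006% in p62S351E/+ mice 1 and 2. The squares lie between 6.26% and 6.77% in the same 4 libraries, at 8.91% in p62S351E/+ mouse 1 and at 11.9% in mouse 2.

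Of the 47 genes, 44 had at least 1 count in some library and 31 reached 10 counts in at least 1 mouse. Of these 31, 24 had 0 counts in both p62S351E/+ mouse 1 and mouse 2. Over all 7882 genes that reached 10 counts in any mouse, 6.55% had 0 counts in both. Only 8 of the 47 genes had any count in these 2 mice, and the highest was the 5 counts of Vamp2. In all 31, each p62+/+ mouse and p62S351E/+ mouse 3 had more counts than either of them, as did 55.2% of all 7882 genes, for libraries that differ in depth.

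The sequence before the start of these genes was searched for RE1, which the choice of genes did not use. The search took TCAGCACC, any 2 bases and GGACAGC on both strands, with up to 3 mismatches over these 15 letters, in windows from 250 bases before to 50 bases after the start. RefSeq windows of GRCm38, the build of mm10, were at hand for 31 of the 47 genes, matched by symbol. A match was found for 3 of these 31 (9.68%), against 2.12% of all 27025 genes with a window and 1 of 31 other pan-neuronal genes with one. The 3 were Syn1, Gad2 and Slc17a6, each with 2 mismatches. They are shown because all 3 had more than 3 counts in the same 4 libraries alone. These 3 genes mark, in turn, synaptic vesicles, GABA neurons and glutamate neurons. Capitals mark the matched bases, read 5′ to 3′ on the strand of the gene, for Syn1 at chrX:20921111-20921168 on the minus strand, for Gad2 at chr2:22622140-22622200 on the plus strand and for Slc17a6 at chr7:51621863-51621879 on the plus strand.
Syn1: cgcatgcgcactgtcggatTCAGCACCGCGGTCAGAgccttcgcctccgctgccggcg
Gad2: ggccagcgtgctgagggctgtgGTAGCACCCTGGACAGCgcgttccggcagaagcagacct
Slc17a6: TCTGTCCGTGGTCCTGA
The matches of Syn1 and Gad2 ended 214 and 148 bases before the RefSeq start of their window. That of Slc17a6 lay 34 to 50 bases after its RefSeq start, in the opposite orientation, so only the match is printed. The GENCODE starts of these genes differ from the RefSeq ones, and all 3 matches lie before them. A match of letters does not show that REST binds there, and its binding was not measured.

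The genes of the neuronal cytoskeleton made up between 43.3% and 47.5% of the neuronal counts across p62+/+ livers and 46.0% in p62S351E/+ mouse 3. The neurofilament subunits Nefl and Nefm, which give large axons their calibre, are neighbours on chromosome 14 (68083863 to 68089095 and 68082590 to 68124846 in GRCm38). Nefl had 107, 152 and 130 counts across p62+/+ livers, 1 count in each of p62S351E/+ mice 1 and 2, and 123 counts in mouse 3. Nefm had 115, 138 and 116 counts across p62+/+ livers, 0 in mice 1 and 2, and 104 counts in mouse 3. The share of Nefm in mouse 3 was 0.776 of the p62+/+ mean, below every p62+/+ mouse. Annotated exons of both genes overlap on opposite strands and the library kit is not described as stranded, so reads of the overlap cannot be assigned to 1 of them. Nefh, the heavy subunit, had 69, 88 and 69 counts across p62+/+ livers and 1, 0 and 84 counts in p62S351E/+ mice 1 to 3. Ina, a further neurofilament protein of central neurons, had 28, 23 and 29 counts against 0, 0 and 31. In these 4 genes mouse 3 lay within or close to the p62+/+ range, and the other p62S351E/+ mice did not exceed 1 count. Prph, the intermediate filament typical of peripheral and motor neurons, contrasted with them, as no mouse had more than 1 count.

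Kif5a, a motor that carries cargo along axons, had 178, 177 and 142 counts across p62+/+ livers, 0 and 4 in p62S351E/+ mice 1 and 2, and 136 in mouse 3. Map2, which binds dendritic microtubules, had 65, 96 and 77 counts against 0, 0 and 79. The tubulin gene Tubb3 had 30, 43 and 34 counts against 0, 0 and 32. In each of these, p62S351E/+ mice 1 and 2 were far below the 4 other libraries. The stathmins Stmn2 and Stmn3 regulate microtubule growth. Stmn2 had 33, 30 and 33 counts across p62+/+ livers and 32 in p62S351E/+ mouse 3, and Stmn3 had 41 in every p62+/+ mouse and 37 in mouse 3. Both had 0 counts in p62S351E/+ mice 1 and 2.

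The 6 genes of synaptic vesicles and transmitter release took between 25.6% and 27.0% of the neuronal counts across p62+/+ livers and 27.4% in p62S351E/+ mouse 3. Snap25, a membrane protein of the release machinery on chromosome 2 (136713453 to 136782428), had 200, 220 and 213 counts across p62+/+ livers, 0 in p62S351E/+ mice 1 and 2, and 232 counts in mouse 3. Against 3 counts per library, its share was at least 32.9-fold lower in mouse 1 and at least 56.4-fold lower in mouse 2 than the p62+/+ mean. Per kilobase of its longest transcript it was the most abundant of the 47 genes, with 99.7 ± 4.80 counts per kilobase (SD, n = 3) in p62+/+ mice and 109.6 in p62S351E/+ mouse 3. Syp, a vesicle membrane protein, had 96, 84 and 76 counts across p62+/+ livers and 0, 0 and 68 counts in p62S351E/+ mice 1 to 3. Syn1, which tethers vesicles, had 22, 35 and 26 against 0, 1 and 25, and some of its exons overlap Araf on the other strand. Syt1, the calcium sensor of release, had 17, 33 and 21 against 0, 2 and 28. Sncb, a synuclein, had 34, 17 and 36 against 0, 0 and 18. In share, mouse 3 lay within the p62+/+ range for Snap25, Syn1, Syt1 and Sncb, though Sncb was at 0.564 of the p62+/+ mean. For Syp it was below every p62+/+ mouse, at 0.732 of their mean. Vamp2, the vesicle partner of Snap25, which other secretory cells also express, was the least restricted. It had 47, 36 and 27 counts across p62+/+ livers and 5, 3 and 21 counts in the p62S351E/+ mice.

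The remaining pan-neuronal genes repeated the split. Eno2, the neuronal enolase, had 73, 88 and 73 counts across p62+/+ livers and 1, 0 and 61 counts in p62S351E/+ mice 1 to 3. Uchl1, a deubiquitinase abundant in neurons, had 39, 36 and 49 against 0, 0 and 27. Thy1, a surface glycoprotein of neurons and T cells, had 56, 53 and 41 against 0, 0 and 36. For these 3 genes the share in p62S351E/+ mouse 3 was between 0.595 and 0.718 of the p62+/+ mean, below every p62+/+ mouse. Scn1a, a sodium channel, had 32.7, 56.7 and 31.0 counts against 0, 0 and 44.5. Its counts were partly divided with related genes, as were those of Nefm, and the other 45 genes had whole numbers in every library. Camk2a, a kinase of excitatory synapses that is richest in forebrain, had 26, 8 and 15 counts against 0, 0 and 19, and a level of 3.29 ± 1.83 counts per kilobase (SD, n = 3) in p62+/+ mice.

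**Figure D2:**
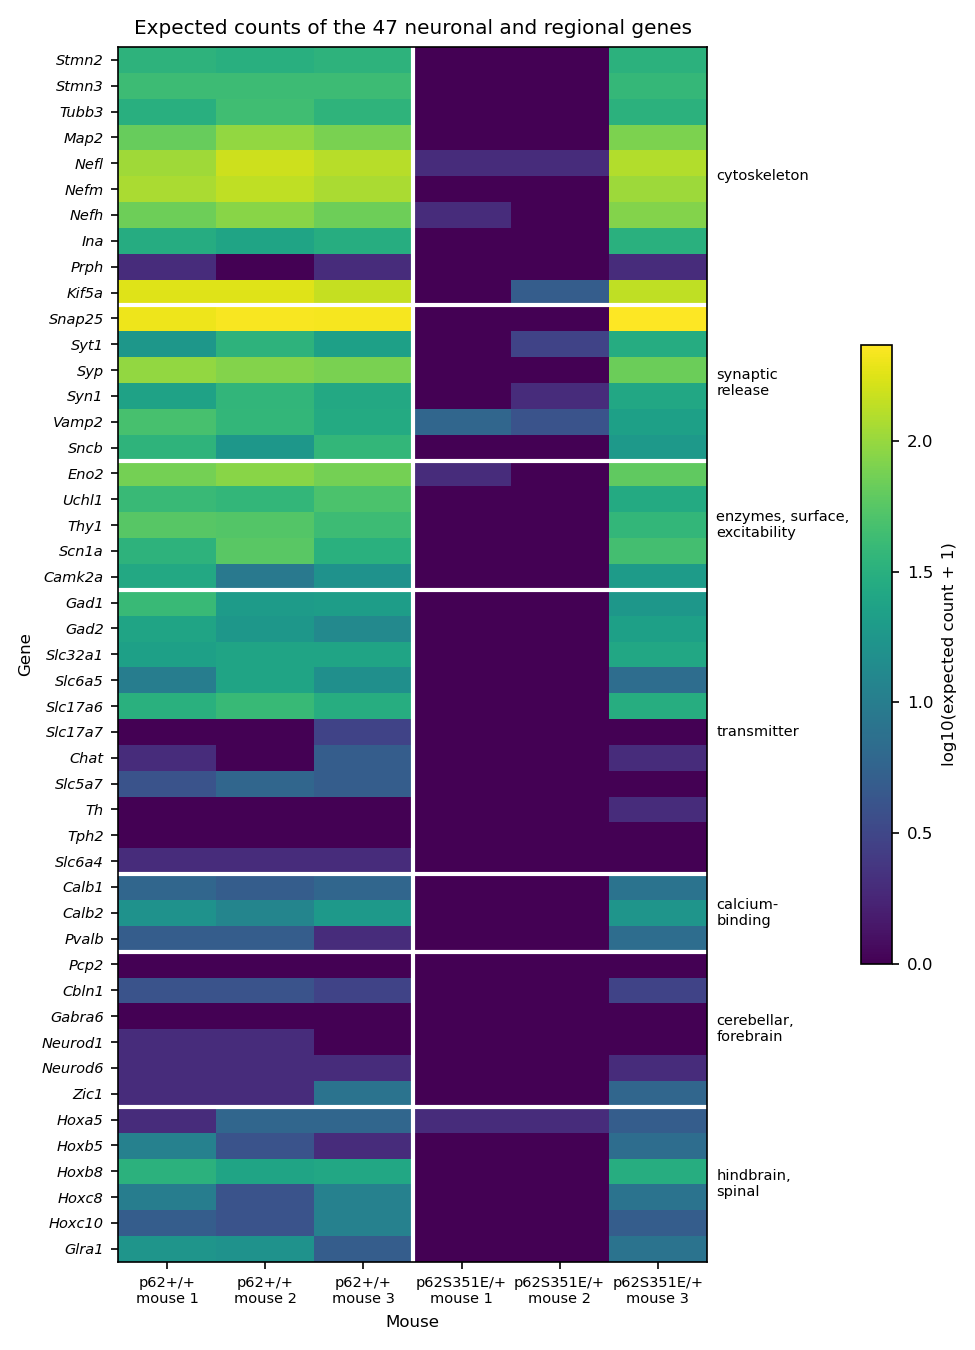
Expected counts of the 47 genes (rows, grouped by role) in the 6 mice (columns), coloured by log10 of the count plus 1. The columns of the 3 p62+/+ mice and of p62S351E/+ mouse 3 look alike, with Snap25 brightest, and those of p62S351E/+ mice 1 and 2 are dark at nearly every gene.

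Transmitter genes fell into those for GABA, glycine and glutamate, which were present, and those for acetylcholine and monoamines, which were at or near 0. Levels were compared between genes per kilobase of the longest transcript. Slc32a1, the vesicular transporter of GABA and glycine, had 21, 23 and 23 counts across p62+/+ livers and 0, 0 and 25 counts in p62S351E/+ mice 1 to 3. Slc17a6, the vesicular glutamate transporter of thalamus, brainstem and spinal cord, had 31, 38 and 29 against 0, 0 and 29. Gad1, which makes GABA, had 39, 19 and 20 against 0, 0 and 17. Their levels across p62+/+ livers, 7.99 ± 0.413, 7.90 ± 1.14 and 7.75 ± 3.36 counts per kilobase (SD, n = 3 each), did not differ beyond their spread. Gad2, the second GABA-synthesizing enzyme, had 23, 17 and 12 counts against 0, 0 and 21 and a level of 3.02 ± 0.959. Slc6a5, the neuronal glycine transporter that marks glycine neurons of hindbrain and spinal cord, had 9, 23 and 14 counts against 0, 0 and 6 and a level of 2.17 ± 1.0 (counts per kilobase, SD, n = 3). These 2 levels overlapped each other and lay below those of Slc32a1 and Slc17a6 in every p62+/+ mouse.

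The level of Slc32a1 was 1.02 ± 0.14 times that of Slc17a6 across p62+/+ livers (SD, n = 3) and 1.28 times in p62S351E/+ mouse 3. With coding length in place of transcript length the p62+/+ ratio was 0.767, so neither gene can be placed above the other. Slc17a7, the glutamate transporter of cerebral cortex and of cerebellar granule cells, had 2 counts in p62+/+ mouse 3 and 0 in the other 5 mice. Acetylcholine genes were barely detected. Chat, which makes acetylcholine, had 1, 0 and 4 counts across p62+/+ livers and 0, 0 and 1 in the p62S351E/+ mice, and Slc5a7, which takes up choline, had 3, 5 and 4 against 0, 0 and 0. Of the monoamine genes, Th, the first enzyme of catecholamine synthesis, had 1 count in p62S351E/+ mouse 3 alone, and Tph2, the neuronal enzyme of serotonin synthesis, had none. Slc6a4, the serotonin transporter, had 1 count in each p62+/+ mouse. At 3 counts or fewer a gene is not distinguishable from absence at this depth.

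Of the calcium-binding proteins that divide interneuron types, Calb2 had 15, 11 and 18 counts across p62+/+ livers and 0, 0 and 16 in p62S351E/+ mice 1 to 3. Calb1, also a mark of Purkinje cells, had 5, 4 and 5 against 0, 0 and 7. Pvalb, found in fast-spiking interneurons and in muscle, had 4, 4 and 1 against 0, 0 and 6. Per kilobase, Calb2 (10.3 ± 2.45) was above Pvalb (3.07 ± 1.77) and Calb1 (1.11 ± 0.137) in every p62+/+ mouse (counts per kilobase, SD, n = 3), and the latter 2 overlapped.

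**Figure D3:**
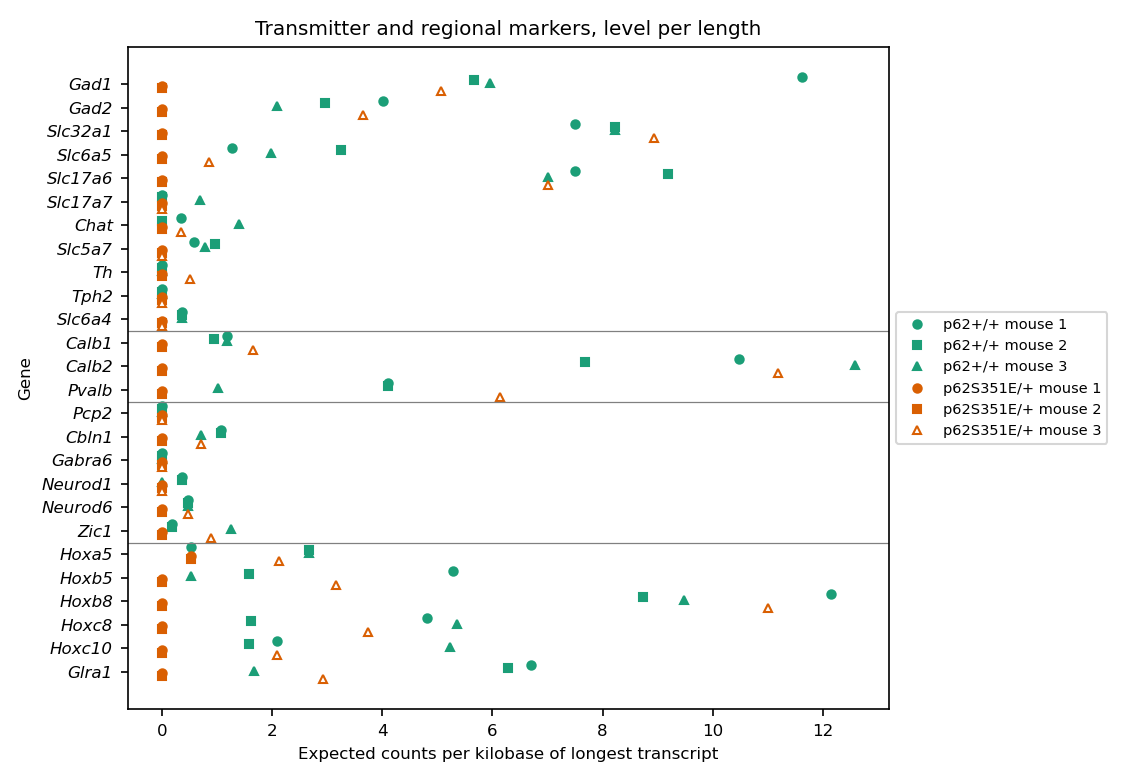
Expected counts per kilobase of the longest transcript for the 26 transmitter, calcium-binding and regional genes in each mouse. Filled green symbols are p62+/+ mice, filled orange symbols p62S351E/+ mice 1 and 2, and open triangles p62S351E/+ mouse 3. Gad1, Slc32a1, Slc17a6, Calb2 and Hoxb8 lie between 5.07 and 12.6 in 4 libraries, whereas Slc17a7, Tph2, Pcp2, Gabra6 and Neurod6 stay at or near 0 in all 6.

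The 6 cerebellar and forebrain genes of this set had at most 7 counts each in any library. This does not extend to Camk2a or to the wider lists of these regions given below. Pcp2, a marker of Purkinje cells, and Gabra6, a receptor subunit of cerebellar granule cells, had 0 counts in every mouse. Neurod1, a granule cell and cortical factor, had 1 count in p62+/+ mice 1 and 2, and Neurod6, a factor of cortical and hippocampal pyramidal cells, had 1 count in each of the 4 libraries with many neuronal counts. Cbln1, secreted by granule cells, had 3, 3 and 2 counts across p62+/+ livers and 2 in p62S351E/+ mouse 3. Zic1, a factor of granule cells and of the dorsal spinal cord, had 1, 1 and 7 counts across p62+/+ livers and 5 in mouse 3. These 6 genes summed to between 6 and 10 counts across p62+/+ livers and to 8 in mouse 3, against 0 in p62S351E/+ mice 1 and 2.

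Hindbrain and spinal genes were present in the same 4 libraries. Hoxb8, on chromosome 11 (96281905 to 96285315), had 32, 23 and 25 counts across p62+/+ livers, 0 in p62S351E/+ mice 1 and 2, and 29 in mouse 3, a level of 10.1 ± 1.79 counts per kilobase (SD, n = 3) in p62+/+ mice. Glra1, the glycine receptor subunit of spinal cord and brainstem, had 16, 15 and 4 counts against 0, 0 and 7. Hoxc8 had 9, 3 and 10 counts against 0, 0 and 7, and Hoxc10, a gene of lumbar levels, had 4, 3 and 10 against 0, 0 and 4. The spread between p62+/+ mice was wide for these low counts, but none was found in p62S351E/+ mouse 1 or 2. Hoxb5 had 10, 3 and 1 counts against 0, 0 and 6. Hoxa5 was the exception among the 6, with 1, 5 and 5 counts across p62+/+ livers, 1 count in each of p62S351E/+ mice 1 and 2, and 4 in mouse 3.

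All 39 Hox genes were then read by paralogue group, the number that follows their position along the body axis from group 1 at the hindbrain to group 13 at the tail. The counts centred on groups 8 to 10, which mark the trunk from thoracic to lumbar levels. The 10 genes of these groups had 101, 72 and 95 counts across p62+/+ livers, 0 in p62S351E/+ mice 1 and 2, and 74 in mouse 3. Beside Hoxb8 they included Hoxb9, with 20, 13 and 14 counts across p62+/+ livers and 13 in mouse 3, and Hoxa10, with 9, 9 and 11 and 7. The 12 genes of groups 4 to 7 had 41, 38 and 22 counts against 2, 2 and 22, and the 8 genes of groups 1 to 3 had 24, 13 and 9 against 4, 1 and 13. Much of the latter came from Hoxb3, with 13, 7 and 5 counts against 3, 0 and 8. Thus a few Hox counts of groups 1 to 7 were also found in the 2 mice with few neuronal counts. The 9 genes of groups 11 to 13, which mark sacral and tail levels, had 0, 1 and 2 counts across p62+/+ livers and 0, 0 and 1 in the p62S351E/+ mice. All 4 Hox clusters contributed, with between 13 and 86 counts per cluster in each p62+/+ mouse.

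**Figure D4:**
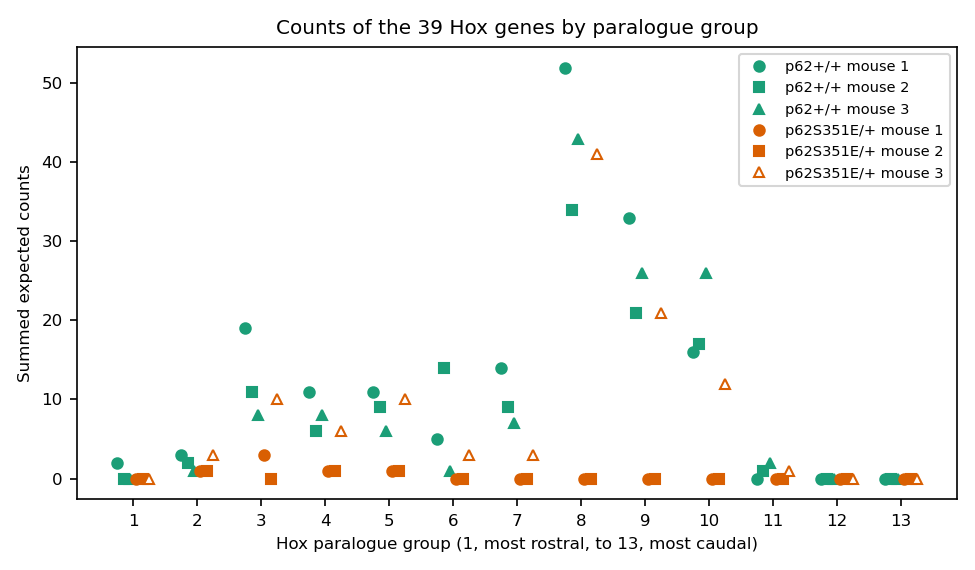
Summed expected counts of the 39 Hox genes by paralogue group in each mouse, green for p62+/+ mice and orange for p62S351E/+ mice. In the p62+/+ mice and p62S351E/+ mouse 3 (open triangles) group 8 is highest, with 34 to 52 counts, and groups 11 to 13 hold at most 2, while p62S351E/+ mice 1 and 2 stay at or below 3 in every group.

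Wider lists were read in the same way. Of 40 other pan-neuronal genes, 37 had more than 3 counts in every p62+/+ mouse and 36 in p62S351E/+ mouse 3, and 4 exceeded 3 counts in p62S351E/+ mouse 1 or 2. Their sums were 2115, 2348 and 2102 counts against 26, 24 and 1838. Among the highest was Map1a, a microtubule protein (177, 183 and 141 counts against 0, 0 and 153). The forebrain list summed to 86, 91 and 131 counts against 13, 7 and 99, and 3 of its 23 genes passed 3 counts in every p62+/+ mouse. In it 9 of 23 genes had no count in any library, among them Emx1, Emx2 and Tbr1, transcription factors of the developing cortex. Its higher genes were Nptx1, Lamp5, Camk2a and Cux2. Nptx1 had 31, 21 and 23 counts against 0, 0 and 29, and Lamp5 had 16, 20 and 20 against 0, 0 and 16. Cux2 had 2, 25 and 61 against 7, 6 and 22, so it did not follow the neuronal counts. It made up 61 of the 131 forebrain counts of p62+/+ mouse 3. In the cerebellar list 5 of 18 genes passed 3 counts in every p62+/+ mouse. Its highest, Itpr1, Rora and Car8, did so in mice 1 and 2 too (36 and 36 counts, 9 and 18, and 17 and 21), whereas Fat2 and Barhl2 had no count, like Pcp2 and Gabra6. Of 16 genes of diencephalon and pituitary 12 had none, among them Lhx9, Pomc, Agrp and Oxt. In that list only Prkcd passed 3 counts in every p62+/+ mouse, with 12, 7 and 6 counts against 1, 2 and 7. The 8 midbrain genes summed to at most 9 counts, and 4 of them had none, among them Slc6a3, Pitx3 and Otx2.

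In a list of 20 hindbrain and spinal genes without Hox genes, 3 had more than 3 counts in every p62+/+ mouse, among them Slc6a5 and Glra1. This list summed to 63, 79 and 68 counts against 10, 26 and 41, so by sums and counts of genes it did not stand above the forebrain list. Sall3 had 1, 5 and 6 counts across p62+/+ livers and 4 in mouse 3, and Phox2a, a factor of visceral motor and autonomic neurons, had none. The 9 motor neuron genes summed to between 8 and 10 counts across p62+/+ livers, 0 in p62S351E/+ mice 1 and 2, and 6 in mouse 3, and Isl1, Mnx1 and Lhx3, factors that specify these cells, had no count. Of 7 serotonin and noradrenaline genes only Ddc, an enzyme also made outside neurons, had more than 3 counts in any mouse, and it had them in all 6. Of 16 peripheral ganglion and enteric genes, Nos1 (4, 7 and 9 counts against 0, 0 and 11) and Ret (5, 8 and 7 against 0, 0 and 7) passed 3 counts in every p62+/+ mouse, while Avil, Scn10a, Scn11a and Dbh had none. The 8 retinal genes summed to at most 4 counts. No RNA of a defined neural region was at hand for comparison, so likeness to a region rests on the presence and absence of these markers alone.

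Glial genes moved with the neuronal ones. The 18 genes of central glia and myelin summed to 2676, 2859 and 2463 counts across p62+/+ livers and to 50, 36 and 2639 in p62S351E/+ mice 1 to 3, and Mbp, the main myelin protein, had 1033, 1040 and 905 against 1, 2 and 923. Neuronal counts were between 0.575 and 0.600 of the glial counts across p62+/+ livers and 0.543 of them in mouse 3. Of 8 Schwann cell genes, 1 had more than 3 counts in any mouse. This was Pmp22, which other cells also use, with 33, 19 and 37 counts against 18, 18 and 44, and Pmp2 had none. Lists for other tissues stayed low in all 6 libraries, with at most 12 summed counts for skeletal muscle, 7 for cartilage and bone, 4 for exocrine pancreas and 2 for lung, and 0 for heart muscle and kidney. The part of neural or other non-liver tissue in any difference between the genotypes was not tested.

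The relative amounts of the neuronal genes were then compared among the 4 libraries with at least 100 neuronal counts. Snap25 made up 13%, 13.3% and 14.4% of the neuronal counts across p62+/+ livers and 16.2% in p62S351E/+ mouse 3, and Kif5a made up 11.6%, 10.7% and 9.61% and 9.49%. For 25 of the 44 detected genes the percentage in mouse 3 lay within the p62+/+ range. Its exact 95% interval lay outside all p62+/+ values for 1 gene, Th, which had 1 count against 0. Among the 23 genes with a mean of at least 20 counts in p62+/+ mice, the highest of the 4 percentages was between 1.12 times the lowest, for Stmn3, and 2.37 times, for Sncb (median 1.33). As shares of the counts left after Rn45s, Lars2 and Mir6236 were set aside, 20 of the 31 genes that reached 10 counts lay within the p62+/+ range in mouse 3, 11 lay below and 0 above, while of all 7882 genes at that count 44.7% lay within, 31.0% below and 24.3% above. The median ratio of mouse 3 to the p62+/+ mean was 0.83 for these 31 genes and 0.942 for all 7882 genes at that count.

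**Figure D5:**
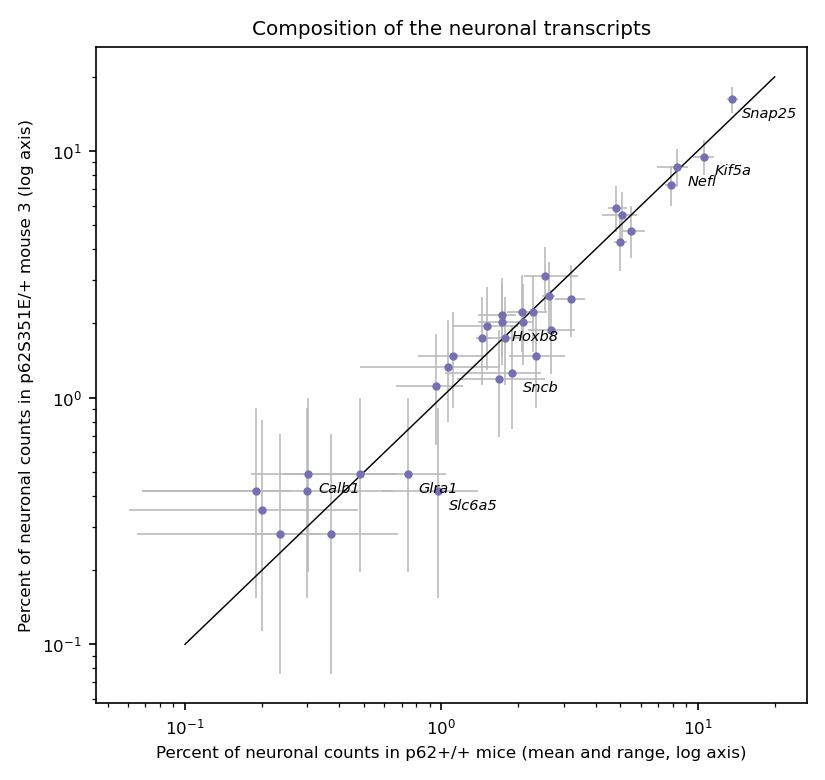
Percent of the summed neuronal counts taken by each of 35 genes with a mean of at least 3 counts in p62+/+ mice and any count in p62S351E/+ mouse 3, across p62+/+ livers (mean, with bars from the lowest to the highest mouse) and in mouse 3 (with exact 95% intervals of counting error), on log axes. The line marks equal percentages, and points such as Snap25, Kif5a and Hoxb8 lie near it, with Slc6a5 and Sncb below.

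The quasi-likelihood test of edgeR compared the genotypes over 5945 genes with enough counts. A gene was called where its p, adjusted by Benjamini-Hochberg, was below 0.05 and its log2 fold change beyond 1. The filter kept 27 of the 47 neuronal genes. It kept them through the groups in which they were high, so these 27 do not stand for all 47. With all 6 mice, 0 of the 27 were called lower, against 0.0841% of all genes tested, and 0 were called higher, against 0.841%. Their log2 fold changes lay between -2.54 and -1.06 with a median of -1.55 (all genes -0.03), and their adjusted p between 0.208 and 0.698. At an unadjusted p below 0.05 there were 2 of them, beside 14.6% of all genes tested, namely Vamp2 (log2 fold change -1.54, standard error 0.46) and Slc6a5 (-2.54, standard error 0.96). DESeq2, which gave an adjusted p to only 5 of the 47, limma-voom and the legacy method of edgeR also called 0. The standard error of Snap25 was 1.77 on the log2 scale, since the p62S351E/+ mice held both 0 and 232 counts.

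Without p62S351E/+ mouse 3, 28 of the 47 genes passed the filter, and 28 were called lower, beside 15.3% of all 6390 genes tested, and 0 higher, beside 5.21%. These 28 had at least 4 counts in every p62+/+ mouse and at most 5 in p62S351E/+ mice 1 and 2, so passing the filter and being lower were bound together. Of these, 21 were fitted against a group at 0, and no fold change of a single gene is given for them. Leaving out any other mouse gave 0 calls among the 27 or 28 genes tested, so the call rests on mouse 3. In shares of counts, 11 of the 31 genes that reached 10 counts were lower in all 3 p62S351E/+ mice than in any p62+/+ mouse, beside 17.0% of all genes at that count. They were Stmn3, Nefm, Kif5a, Syp, Vamp2, Eno2, Uchl1, Thy1, Gad1, Slc6a5 and Slc17a6.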

How the data were processed

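Liver RNA of 3 p62+/+ and 3 p62S351E/+ mice was depleted of ribosomal RNA and sequenced single-end. The authors mapped reads to mm10 with STAR and deposited expected counts per gene symbol from RSEM, without normalization. The submitters' processing notes also name Trim Galore and DESeq2. Versions and annotation are not given in the sources used here. Groups came from the sample titles.

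Counts were rounded and tested with edgeR 4.0.16 (R 4.3.3): filterByExpr with a minimum count of 10, TMM, and the robust quasi-likelihood test, adjusted over all genes tested. DESeq2 1.42.0 and limma-voom (limma 3.58.1) were alternatives, beside other scalings, filters, a replicate block and leaving out each mouse. The test was checked on simulated counts. The p-values measure only the spread between these samples. Precision is set by the 134911 to 315436 counts per mouse outside Rn45s, Lars2 and Mir6236. Positions and transcript lengths are those of GENCODE on GRCm38, where all 47 genes were found. Exons of 11 of them overlap another gene on the opposite strand.

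The genes, lists and tests were chosen with earlier results of these data known. By rule, every member was accounted for, values per mouse were given for members with at least 10 counts in any mouse (up to 30 by summed counts), and other lists were named by up to 4 highest and up to 4 absent genes. Per-mouse values of rarer members were added after they were seen. Some genes of the other lists are not reported here.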

Additional observations from a re-analysis of the deposited data

How the results depend on the processing

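The neuronal genes had 0 calls in either direction under every alternative except the one without p62S351E/+ mouse 3, with 28 lower. Requiring 10 counts in all 6 libraries left none of them to test. Their median log2 fold change was -3.06 with limma-voom and between -7.43 and -1.04 with 1 mouse left out. The -7.43, without p62S351E/+ mouse 3, depends on the prior count for genes at 0 and is neither a size nor a bound. The labels do not say whether the replicate numbers pair the mice. Correlations of same-numbered deviations were 0.08, -0.09 and -0.00, which with 3 mice per group cannot decide it. With the replicate block the median was -2.84, 18 genes were higher and 1 lower. Over all genes, against 50 higher and 5 lower, DESeq2 gave 12 lower, the legacy method 8 lower, limma-voom 131 and 12, library size only 12 and 2, no filter 79 and 10, 10 counts in all libraries 29 lower, and an adjusted p below 0.01 gave 18 and 1. With 1 mouse left out the range was 16 to 333 higher and 1 to 975 lower, both highest without p62S351E/+ mouse 3.

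As a percent of all counts, the neuronal genes took 0.0171, 0.0167 and 0.0170 across p62+/+ livers, against 8.70e-05, 0.000117 and 0.0142. As a percent of hepatocyte marker counts they were 7.65, 8.85 and 8.40 against 0.0749, 0.0436 and 6.75. Without the 2 genes with divided counts the p62+/+ shares were 0.468%, 0.489% and 0.490% and that of mouse 3 was 0.407%. Genes above the count limit in every p62+/+ mouse were 7 Hox, 3 forebrain, 5 cerebellar and 3 hindbrain and spinal genes at more than 3 counts, and 19, 7, 10 and 8 at any count. At 10 or more counts they were 2 Hox, 2 cerebellar and 1 hindbrain and spinal. With 4 mismatches allowed, RE1 matched 6 of the 31 promoters of these genes (19.4%) and 7 of 31 of other pan-neuronal genes, against 13.9% of all. By coding length the ratio of Slc32a1 to Slc17a6 was 0.767. Where a filter or the number of mice does not by itself account for a change, the cause was not tested.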
